A study of Homo sapiens with 6 samples.

Results

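Wide nuclear 6mA peaks were taken as the peaks of at least 1000 bp on chromosomes 1 to 22 and X in the 6mA-IP-seq peak lists of MDA-MB-453 cells. The 2 control libraries held 1584 and 1667 such peaks and the 2 si-N6AMT1 libraries 1986 and 2035, out of 30441, 33397, 38831 and 40829 nuclear peaks. Wide peaks that overlapped by at least 1 bp between libraries were merged into 3586 wide regions, out of 72523 merged nuclear regions. The width of the peaks chose the members, so the widths below describe them and are not a finding.

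N6-methyladenine (6mA) is adenine with a methyl group on its amino nitrogen. In 6mA-IP-seq, sheared and denatured DNA is pulled down with a 6mA antibody and sequenced, and places with more fragments than the background appear as peaks. MDA-MB-453 is an established human breast cancer cell line. Both groups were MDA-MB-453 cells transfected with siRNA at 10 nM for 48 h, the control group with a control siRNA and the other with one that targets N6AMT1 (si-N6AMT1), which the study tested as an enzyme that writes 6mA. Each group had 2 immunoprecipitated libraries and 1 input library. No file of the 2 inputs was used here, and the peak lists hold no measure of N6AMT1 transcript, so the depth of the knockdown was not analysed here. All libraries came from 1 cell line, whose chromosomes differ in copy number, which was not measured here.

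A peak caller joins neighbouring stretches of enriched fragments, so a peak becomes wide where enrichment runs on without a break. Long arrays of repeated sequence are one kind of place where this can occur. Human chromosomes carry such arrays beside their centromeres, where classical satellites are built from copies of GGAAT and its variants, and many short arrays of CA and of longer units lie near chromosome ends. In these arrays the assembly can hold fewer copies than the cell, and sequenced fragments can fit several places.

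The sequences at the summits of 8 wide regions are shown, taken from the widest, those of highest fold and those with peaks in a single group. They do not represent all wide regions, as 77.7% of these fell in none of the repeat classes given below. Regions W1 to W6 are those with the widest peaks, F1 to F6 those with the highest mean fold among regions called in all libraries. Each sequence is 160 bases of the plus strand of hg19, read 5′ to 3′ around the summit. Capitals mark GGAAT or its reverse complement ATTCC in W1, W3 and W4, and CACA or its reverse complement TGTG in the others, with overlapping copies counted once. The windows are chr21:10775471-10775630 for W1, chr20:29807920-29808079 for W3, chr11:2077880-2078039 for W4, chr5:3323185-3323344 for F1, chr9:47187499-47187658 for F2 and chr21:45024433-45024592 for F3. The region wide in both control libraries with no si-N6AMT1 peak of any width (named control peaks only) is shown at chr11:34718082-34718241 and the first of those wide in both si-N6AMT1 libraries with no control peak (named si-N6AMT1 peaks only) at chr5:70768574-70768733.
W1: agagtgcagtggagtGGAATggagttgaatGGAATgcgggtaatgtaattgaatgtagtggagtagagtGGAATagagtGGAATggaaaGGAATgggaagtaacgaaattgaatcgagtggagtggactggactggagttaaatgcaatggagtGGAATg
W3: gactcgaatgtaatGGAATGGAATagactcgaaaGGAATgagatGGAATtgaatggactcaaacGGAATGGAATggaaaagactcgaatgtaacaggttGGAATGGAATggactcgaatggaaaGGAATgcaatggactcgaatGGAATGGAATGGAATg
W4: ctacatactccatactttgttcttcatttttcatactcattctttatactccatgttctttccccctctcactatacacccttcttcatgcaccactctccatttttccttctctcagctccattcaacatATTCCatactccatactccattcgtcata
F1: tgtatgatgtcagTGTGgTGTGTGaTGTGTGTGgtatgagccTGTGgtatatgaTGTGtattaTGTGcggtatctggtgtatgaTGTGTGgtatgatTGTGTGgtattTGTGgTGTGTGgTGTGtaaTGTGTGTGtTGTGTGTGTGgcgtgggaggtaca
F2: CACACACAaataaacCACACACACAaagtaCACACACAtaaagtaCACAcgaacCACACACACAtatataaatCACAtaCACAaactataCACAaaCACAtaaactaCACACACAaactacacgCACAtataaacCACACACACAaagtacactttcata
F3: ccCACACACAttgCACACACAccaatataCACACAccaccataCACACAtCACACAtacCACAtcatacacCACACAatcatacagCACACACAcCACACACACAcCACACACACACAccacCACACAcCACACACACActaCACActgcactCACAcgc
control peaks only: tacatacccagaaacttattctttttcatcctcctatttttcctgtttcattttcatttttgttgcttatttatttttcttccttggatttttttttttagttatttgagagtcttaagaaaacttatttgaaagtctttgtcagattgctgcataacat
si-N6AMT1 peaks only: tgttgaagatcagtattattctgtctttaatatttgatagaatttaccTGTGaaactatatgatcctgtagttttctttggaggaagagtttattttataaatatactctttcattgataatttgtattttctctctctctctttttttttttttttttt
Copies of GGAAT covered 18.8% of the window of W1 and 37.5% of that of W3, against 3.12% in W4. CACA or TGTG covered 46.2% of the window of F1, 48.8% of F2 and 61.3% of F3. The region with control peaks only held no copy, and CACA or TGTG covered 2.5% of the window of the one with si-N6AMT1 peaks only. In the 300 bp around each summit, CACA or TGTG covered at least 30% of the bases in 21.8% ± 2.11 of wide peaks and in 4.69% ± 0.499 of the other nuclear peaks (SD, n = 4 libraries). GGAAT or ATTCC reached the same share in 2.42% ± 0.445 of wide peaks and in 0.114% ± 0.0176 of the others. A match to these letters describes the sequence and does not show where the modified adenine lies.

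The number of wide peaks per library followed the number of all peaks. Control libraries held 1625.5 ± 58.7 wide peaks and si-N6AMT1 libraries 2010.5 ± 34.6 (SD, n = 2 each), which was 23.7% more, and both si-N6AMT1 values lay above both control values. All nuclear peaks were 24.8% more numerous in si-N6AMT1. Wide peaks thus made up 5.20% and 4.99% of the nuclear peaks in control against 5.11% and 4.98% in si-N6AMT1, with a difference of −0.0482 percentage points. With the 6 ways to assign libraries to groups, an exact permutation test gave p = 0.333 for the number and p = 0.667 for the share. The smallest p that 2 against 2 libraries allow is 0.333. The summed length of the wide peaks was 2311 and 2392 kb in control and 2845 and 2899 kb in si-N6AMT1, or 13.3% to 14.0% of the length of all nuclear peaks.

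Depth moved with these numbers. The relative depth, from the genome-wide background of each list, was 1 and 1.32 in control against 1.38 and 1.5 in si-N6AMT1. Dividing by it takes counts to rise in proportion to depth, which was not tested. Between the control libraries, wide peaks went from 1584 to 1667 while depth went from 1 to 1.32. Per unit of this depth there were 1584 and 1260 wide peaks in control against 1434 and 1357 in si-N6AMT1, and the groups overlapped (difference −26.6, exact permutation p = 1). With the same number of peaks in every list, those of highest −log10 p, wide peaks made up 5.20% and 5.40% in control against 6.12% and 6.14% in si-N6AMT1, a difference of 0.826 percentage points (exact permutation p = 0.333). The sign of the difference in share thus turned with this setting. The cut left control replicate 1 whole and took the weakest peaks from the longer lists, most from si-N6AMT1. Wide peaks had median −log10 q values of 16.7 to 18.9, against 10.0 to 10.5 for the others. Such a cut can raise the wide share by itself, so this setting cannot show a difference between the groups.

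**Figure D1:**
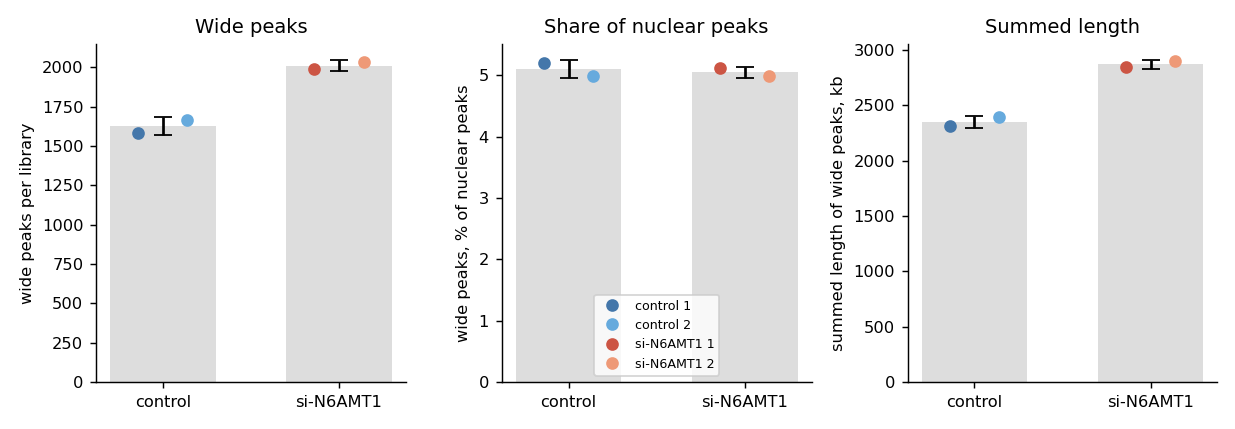
Number of wide peaks, their share of nuclear peaks in percent and their summed length in kb, in control and si-N6AMT1 libraries. Points are libraries, bars are means of 2 libraries and error bars are SDs, and the number and length are higher in both si-N6AMT1 libraries while the shares lie between 4.98% and 5.20%.

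Most wide peaks were only a little over the limit. Their median width was 1197 to 1213 bp in the 4 libraries, against 435 to 441 bp for the other nuclear peaks. Peaks of at least 3000 bp numbered 40 in each control library and 49 and 45 in si-N6AMT1. The fold enrichment is the fragment pileup at the summit over the local background, with 1 added to both. Its median over wide peaks was 10.7 and 9.31 in control against 9.34 and 8.70 in si-N6AMT1, and over the others 7.32, 6.83, 6.83 and 6.55 in the same order. The median pileup at a wide summit was 23 to 26 fragments, so single values rest on few fragments. Just below the limit, by at most 10 bp, 238 peaks had a median fold of 8.13, and just above it, by less than 10 bp, 260 peaks had a median fold of 7.85.

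Wide regions were often called in every library, but were seldom wide in every one. Of the 3586 wide regions, 2417 (67.4%) had a peak of any width in all 4 libraries, against 16.7% of all nuclear regions. A longer region can meet more peaks and a stronger one is more easily called, and the part of length and strength in this was not tested. Only 784 (21.9%) were wide in all 4 libraries, 339 in 3, 567 in 2 and 1896 in 1. Of the regions wide in 1 library, 871 (45.9%) still had a narrower peak in all of the others, and 194 (10.2%) had a peak in no other library. Replicates shared 976 wide regions in control, 62.6% of those of replicate 1 and 59.5% of those of replicate 2. In si-N6AMT1 they shared 1175, or 59.7% and 58.3%. Where a library had peaks in a region but none was wide, the region was split into 2 or more peaks in 472 of 5207 cases (9.06%).

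Few wide regions had peaks in both libraries of a group and none in the other group. A peak of any width in both control libraries and in neither si-N6AMT1 library occurred in 33 wide regions (0.920%), against 2.63% of all nuclear regions. The reverse occurred in 130 (3.63%), against 5.86%. Wide regions are longer and hold stronger peaks than most nuclear regions, so they can less easily lack a peak in the other group. The part of length and strength in these lower shares was not tested. Wide in both control libraries with no si-N6AMT1 peak was 1 region, chr11:34717145-34718363, in intergenic sequence 32310 bp from EHF, which encodes an epithelial ETS transcription factor. Its fold was 6.87 and 8.14 in the control libraries, from 16 and 23 fragments. Wide in both si-N6AMT1 libraries with no control peak were 7 regions. The first by −log10 q, chr5:70768467-70769634, lay in an intron of BDP1, which encodes a subunit of the RNA polymerase III factor TFIIIB, with a fold of 8.45 and 5.94 from 22 and 16 fragments. The next were chr20:43794711-43796490, 7053 bp from PI3, and chr7:32639554-32640768, 11216 bp from AVL9, with folds between 5.15 and 6.74. At the summits of the regions near PI3 and AVL9, 89.3% and 81.9% of the 31-base words occurred elsewhere in the genome. All 4 of these regions had folds below the median of wide peaks in their library.

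The shares of wide regions whose fold was lower or higher in si-N6AMT1 lay near those of all nuclear regions. Over the 2417 wide regions called in all libraries, the median fold was 9.65 and 8.89 in control against 9.18 and 8.81 in si-N6AMT1, so the groups overlapped. The median log2 ratio of si-N6AMT1 to control was −0.04 in wide regions and −0.05 in all 12124 nuclear regions called in all libraries. The difference of the library medians in wide regions was −0.04 on the log2 scale (exact permutation p = 0.667). The fold was lower in both si-N6AMT1 libraries than in both control libraries in 591 wide regions (24.5%), against 24.3% of all nuclear regions. It was higher in 375 (15.5%), against 16.9%. After each library was centred on its median, 520 (21.5%) were lower and 485 (20.1%) higher, against 21.3% and 20.8%.

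Of the 6 widest regions, all but W4 lay within 1 Mb of an assembly gap. Region W1, chr21:10773795-10819397, held peaks of up to 45557 bp in control replicate 1, 37352 bp in control replicate 2, 37393 bp in si-N6AMT1 replicate 1 and 45563 bp in si-N6AMT1 replicate 2. Its summit lay 412579 bp from the gap that the assembly leaves at the centromere, and the nearest protein-coding gene, TPTE, was 86920 bp away. The highest fold in W1 was 17.6 and 15.0 in control against 13.4 and 12.7 in si-N6AMT1, lower in both si-N6AMT1 libraries. The fragments, not scaled by depth, were 45 and 47 in control against 55 and 50 in si-N6AMT1. They were taken at the summit of highest fold of each library, which need not be the same place in so long a region. The background at these summits was 1.61 and 2.19 against 3.16 and 3.01. W2, chr21:10830215-10860798, and W6, chr21:10819800-10829703, followed on the same stretch. W2 had folds of 10.6 and 10.1 in control against 9.17 and 8.91 in si-N6AMT1, also lower in both. Its fragments were 41 and 38 against 44 and 42, over backgrounds of 2.95 and 2.85 against 3.91 and 3.82. W6 had 11.1 and 8.23 against 9.76 and 9.46, with the groups overlapping. It was 2 peaks in each control library and 1 peak in each si-N6AMT1 library.

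W3, chr20:29804032-29829399, lay 388431 bp from a gap and 16068 bp from DEFB115, a beta-defensin gene. Its fold was 15.7 and 14.0 in control against 11.8 and 11.0 in si-N6AMT1, lower in both. Its fragments were 46 and 50 in control against 36 and 37 in si-N6AMT1, again at the summit of highest fold of each library and not scaled by depth. Its widest peak was 25216 bp in control replicate 1 and 10255 to 19303 bp in the other libraries, where the stretch was cut into 2 or 3 peaks. W5, chr2:89850152-89880009, was cut further, into 8 and 10 peaks in control against 4 and 5 in si-N6AMT1. It had folds of 12.5 and 9.70 in control against 10.5 and 11.3 in si-N6AMT1. W4, chr11:2067546-2084610, was the exception in place, 2077959 bp from the chromosome end, with MRPL23 at 61794 bp. Its folds were 14.6 and 14.8 in control against 14.9 and 14.2 in si-N6AMT1, and its widest peak 7456 to 17065 bp.

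Of the 6 regions of highest fold, F1 to F5 were CACA-rich and F6 was not. F1, chr5:3322318-3324706, lay 271240 bp from IRX1, a homeobox gene. It had a fold of 27.2 and 28.2 in control against 23.3 and 18.5 in si-N6AMT1, from 55, 67, 70 and 66 fragments, lower in both si-N6AMT1 libraries. F2, chr9:47185946-47188271, had 19.4 and 25.0 in control against 28.6 and 22.4 in si-N6AMT1, with the groups overlapping, and lay 130101 bp from a gap. F3, chr21:45023945-45025956, lay in an intron of HSF2BP, whose product binds heat shock factor 2, with folds of 27.6 and 21.2 against 23.3 and 18.5. F4, chr5:856014-857284, touched the annotated ends of ZDHHC11 and BRD9. It had 21.8 and 15.98 in control against 27.9 and 22.7 in si-N6AMT1, higher in both.

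F5, chr9:38628606-38630036, lay 8013 bp from ANKRD18A and had folds of 24.8 and 17.1 in control against 22.5 and 21.9 in si-N6AMT1. F6, chr21:11115687-11116811, lay 71873 bp from the centromere gap of chromosome 21. It was the one of these 6 with few CA copies (9.33% of the window), and 81.9% of its 31-base words occurred elsewhere in the genome. F6 had 124 and 140 fragments in control against 162 and 140 in si-N6AMT1, and folds of 24.4 and 21.9 against 21.5 and 17.4. Of the 12 regions W1 to W6 and F1 to F6, the fold was lower in both si-N6AMT1 libraries in 5, higher in both in 1 and overlapping in 6, and the numbers were equal after centring each library. Among all nuclear regions called in all libraries, 24.3% were lower in both and 16.9% higher in both, or 21.3% and 20.8% after centring, and 12 regions are too few to read a difference from these shares. The widths of F1 to F6 stayed between 1071 and 2379 bp in every library.

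**Figure D2:**
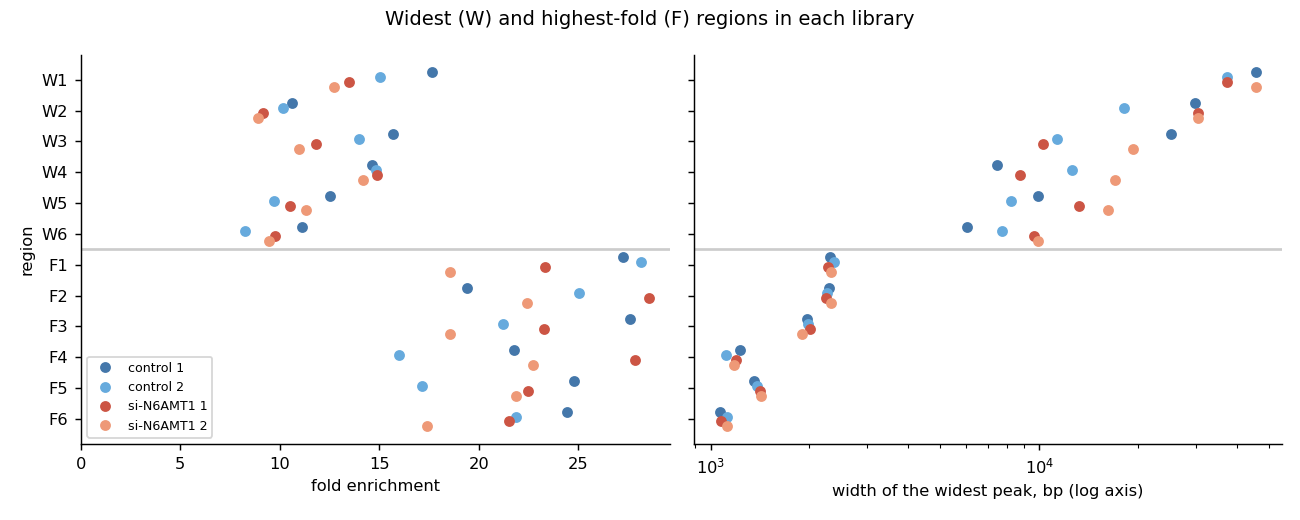
Fold enrichment (left) and width of the widest peak in bp on a log axis (right) in each library, for the 6 regions with the widest peaks (W1 to W6) and the 6 of highest mean fold (F1 to F6). Each point is a library, and the widths of W3 and W4 vary more between libraries than those of any F region.

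In every library, a larger share of wide than of other peaks lay beside assembly gaps and near chromosome ends. A peak was called gap-adjacent where its summit lay within 1 Mb of a run of at least 1 Mb of unknown bases, which marks most centromeres. This held for 4.798% and 4.50% of wide peaks in control against 3.93% and 4.08% in si-N6AMT1. It held for 1.12% to 1.20% of the other nuclear peaks, and 1.44% of the assembled genome lies as close to a gap. The mean was 4.33% ± 0.397 for wide and 1.17% ± 0.0325 for other peaks (SD, n = 4), higher in 4 of 4 libraries. Libraries share many sites, so here and in the comparisons below they are not independent draws of sequence. An exact sign-flip permutation test over the 4 libraries gave p = 0.125, the smallest it can give, so that no comparison of this kind could pass 0.05, and 0.2 after Benjamini-Hochberg adjustment over 8 comparisons. Summits within 2 Mb of a chromosome end made up 8.43% ± 0.463 of wide and 2.69% ± 0.0734 of other peaks (SD, n = 4). This measure was chosen after seeing the data and was not tested. Seen the other way, 15.2% to 19.0% of all gap-adjacent peaks and 13.5% to 15.5% of those near chromosome ends were wide, against 4.54% to 4.70% elsewhere.

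Wide peaks are also strong peaks, so the other peaks of highest −log10 q, as many as the wide ones in each library, served as a second comparison, added after seeing the data. These strong other peaks had median widths of 593 to 619 bp and median folds of 11.9 to 14.2. They were gap-adjacent in 2.11% ± 0.161 of cases and near chromosome ends in 4.97% ± 0.626 (SD, n = 4). Both shares lay below those of wide peaks in 4 of 4 libraries (gap-adjacent, exact sign-flip permutation p = 0.125, adjusted 0.143). GGAAT-rich windows were found in 0.0372% ± 0.0472 of the strong other peaks, with none in either control library. CACA-rich windows made up 19.7% ± 2.23 of them, below wide peaks in 4 of 4 libraries, by 0.352 to 3.59 percentage points.

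Tandem repeats were more frequent in wide peaks than in all other peaks, but less frequent than in the strong other peaks. A window was called a tandem repeat where at least 70% of its bases matched the base a fixed spacing of up to 100 bp away. This held for 15.6% and 14.3% of wide peaks in control against 13.8% and 12.1% in si-N6AMT1. The mean was 14.0% ± 1.43 for wide, 5.01% ± 0.545 for all other and 17.5% ± 1.29 for strong other peaks (SD, n = 4), so the direction turned with the comparison in 4 of 4 libraries. GC content did the same, with 41.6% ± 0.480, 38.5% ± 0.255 and 42.1% ± 0.431. The share of 31-base words that occur elsewhere in the genome was 21.3% ± 1.05 in wide, 24.1% ± 1.17 in other and 17.0% ± 0.790 in strong other peaks. Each of these comparisons went one way in all libraries, with an exact sign-flip permutation p of 0.125.

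**Figure D3:**
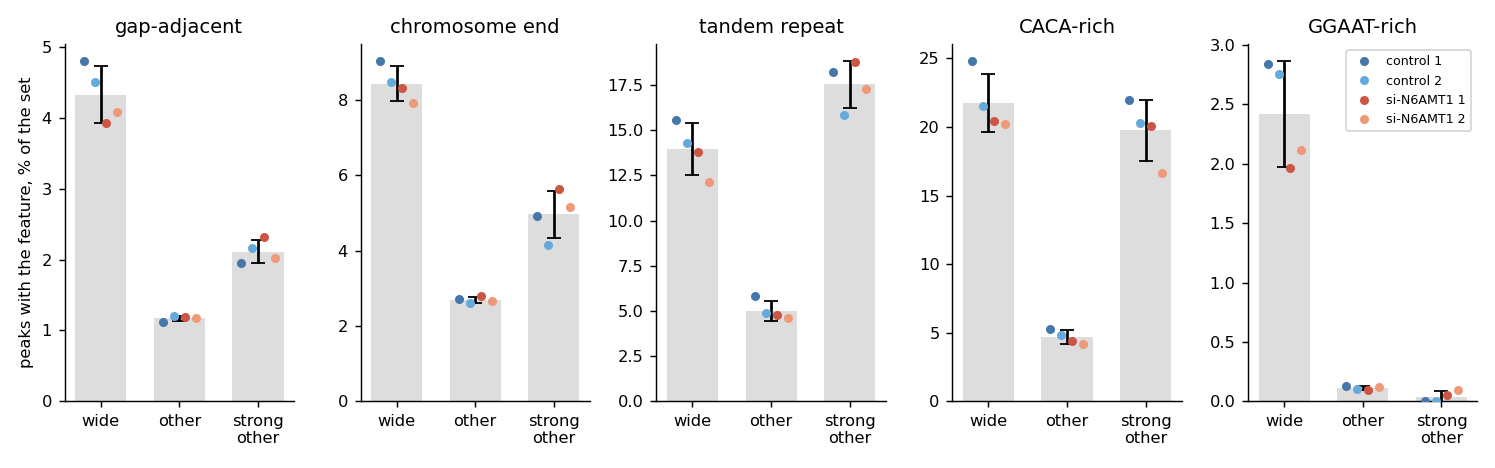
Share of peaks in percent that are gap-adjacent, near a chromosome end, a tandem repeat, CACA-rich or GGAAT-rich, for wide peaks, all other nuclear peaks and as many strong other peaks. Points are libraries, bars are means of 4 libraries and error bars are SDs. Wide peaks stand above both sets for gaps, chromosome ends and GGAAT. For CACA they stand only a little above strong other peaks, and for tandem repeats below them.

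Among tandem repeats, those of wide peaks more often had long spacings. Over the 4 libraries, the best spacing was 4 bp in 194 of 1006 wide tandem windows (19.3%) and in 3457 of 6767 others (51.1%). A spacing of 21 to 100 bp was best in 494 (49.1%) of the wide and in 1785 (26.4%) of the others. Libraries share these sites, so the counts are a description. At 5 bp, the length of the GGAAT unit, there were 39 wide (3.88%) and 60 other windows (0.887%).

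The 3586 regions were grouped by the window of their peak of highest fold. Of these, 508 (14.2%) were CACA-rich, 35 (0.976%) GGAAT-rich, 256 (7.14%) another tandem repeat and 2787 (77.7%) none of these. CACA-rich regions were called wide in all 4 libraries in 57.1% of cases and GGAAT-rich ones in 60%, against 51.2% of the other tandem repeats and 12.3% of the rest. Among the 100 regions of highest mean fold, 66 were CACA-rich, 10 another tandem repeat and 24 of neither kind. Among the 51 regions with a peak of at least 3000 bp, 15 were GGAAT-rich, 9 CACA-rich, 3 another tandem repeat and 24 of neither kind, and 48 of the 51 were wide in all libraries. W1 was counted as neither, because GGAAT covered 23.3% of its 300-bp window, below the limit of 30%.

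The classes lay in different places. Of the 35 GGAAT-rich regions, 26 (74.3%) were gap-adjacent and 1 was near a chromosome end. Of the 508 CACA-rich regions, 2 were gap-adjacent and 70 (13.8%) were near a chromosome end. The other tandem repeats had 4 and 39 (15.2%) of 256. The 84 gap-adjacent wide regions held 52 of neither class.

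Counts of wide peaks by class were also compared between the groups. Wide peaks in none of the repeat classes numbered 974 and 1086 in control against 1334 and 1401 in si-N6AMT1, 32.8% more. All nuclear peaks were 24.8% more numerous, and the share of this class among the other nuclear peaks is not given here. Other tandem repeats numbered 172 and 176 against 207 and 179, 10.9% more. CACA-rich peaks numbered 393 and 359 against 406 and 412, 8.78% more. They made up 24.8% and 21.5% of wide peaks in control against 20.4% and 20.2% in si-N6AMT1. Among the other nuclear peaks the share was 5.31% and 4.85% against 4.42% and 4.18%. It was thus lower in both si-N6AMT1 libraries outside wide peaks too. GGAAT-rich peaks numbered 45 and 46 against 39 and 43, and both si-N6AMT1 values lay below control. Peaks and not regions were counted, and some stretches, such as W5, were cut into more peaks in control. The GGAAT-rich share of the other nuclear peaks was 0.132% and 0.107% in control against 0.0923% and 0.124% in si-N6AMT1, with the groups overlapping. Gap-adjacent wide peaks numbered 76 and 75 in control against 78 and 83 in si-N6AMT1. The classes were made after seeing the data and these counts were not tested. The deeper libraries were those of si-N6AMT1, and the part of depth was not tested by class.

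**Figure D4:**
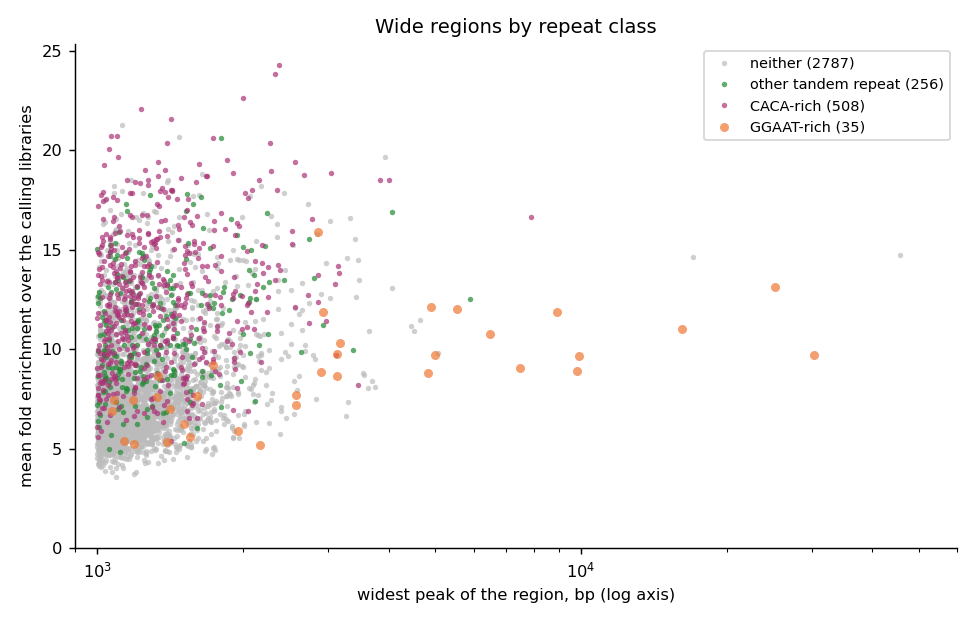
Widest peak of each wide region in bp on a log axis against its mean fold over the libraries that called it, coloured by repeat class with the number of regions in brackets. The 6 regions of highest fold are at most 2379 bp wide and mostly CACA-rich, while GGAAT-rich regions reach 30336 bp at folds of at most 15.9.

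The gap-adjacent share was larger in the wider classes. It was 1.17% of peaks under 1000 bp, 2.32% of those from 1000 to under 1500 bp, 7.26% of those from 1500 to under 3000 bp and 44.8% of the 174 peaks of 3000 bp and over. GGAAT-rich windows made up 0.113%, 0.861%, 3.85% and 40.2% of the same classes. CACA-rich windows made up 4.64%, 19.8% and 29.99% of the first 3 classes and 13.2% of the widest. Intergenic summits made up 69.5% of the widest class. These counts pool peaks of all libraries, which share sites.

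Most wide summits were intronic or intergenic, as were those of the other peaks. Intergenic summits made up 42.5% ± 0.527 of wide and 43.8% ± 0.345 of other peaks, lower in 4 of 4 libraries, and 40.8% of the assembled genome. Intronic summits made up 54.1% ± 0.968 and 53.2% ± 0.228, with 52.8% of the genome. Promoters, taken as 1000 bp on either side of a transcription start, held 2.45% ± 0.446 of wide and 2.23% ± 0.152 of other summits, higher in 2 of 4 libraries, and 3.18% of the genome. Exons held 0.899% ± 0.0964 and 0.760% ± 0.0352 (SD, n = 4 in each case), with 3.15% of the genome. Exact sign-flip permutation p-values were 0.125, 0.25, 0.5 and 0.25 in this order. Strong other peaks had more promoter summits than wide ones, 3.68% ± 0.347 (SD, n = 4), in 4 of 4 libraries.

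The share of peaks that were wide varied between chromosomes. It was highest on chromosome 19, at 12.8% and 12.0% in control against 10.8% and 11.2% in si-N6AMT1. Chromosome 16 followed with a mean of 10.1% ± 1.03, chromosome 21 with 9.73% ± 0.527 and chromosome 22 with 7.95% ± 0.878 (SD, n = 4). Every library had a higher share on each of these chromosomes than on any other. The lowest shares were on chromosome 6, at 2.48% ± 0.266, and chromosome 4, at 3.16% ± 0.0792. On chromosome 21, 16 of 74 wide regions were gap-adjacent, whereas chromosome 19 had 4 of 123 and chromosome 16 had 0 of 102. On chromosome 7, 33 of 248 lay near a chromosome end.

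**Figure D5:**
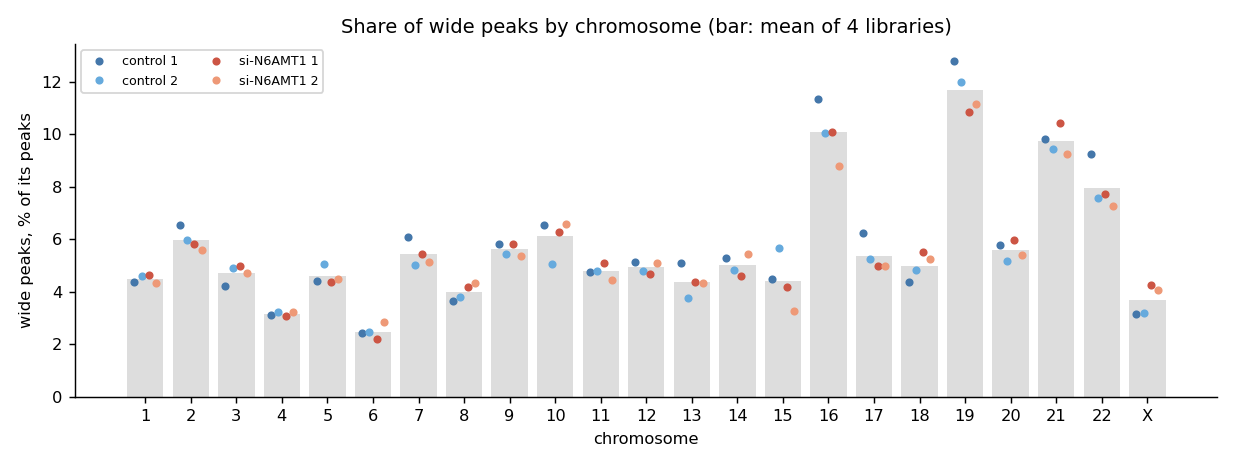
Share of the peaks of each chromosome that are wide, in percent, for chromosomes 1 to 22 and X. Bars are means of 4 libraries and points are libraries, and chromosomes 16, 19, 21 and 22 stand above the rest in every library.

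Some stretches held many wide regions. The window chr3:136000001-137000000 held 13 of 78 nuclear regions as wide ones, only 1 of them wide in all libraries. In chr20:60000001-61000000 there were 12 of 48, 6 of them wide in all libraries, and this stretch overlaps CDH4. In chr14:106000001-107000000, within the immunoglobulin heavy chain locus, 10 of 37 regions were wide. In chr16:33000001-34000000, 9 of 19 were wide, 7 of them in all libraries.

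Wide regions overlapped 1309 of 20090 protein-coding genes, and 1691 of the regions (47.2%) met one. Genes with a wide region had a median length of 134 kb, against 27.3 kb for all protein-coding genes. CDH4, which encodes the cadherin R-cadherin, held 12 wide regions in 688 kb, 6 of them wide in all libraries, with 9 and 6 wide in the control libraries and 10 in each si-N6AMT1 library. PTPRN2, a receptor-type phosphatase of secretory vesicles, held 11 in 1049 kb, with 7 and 8 against 8 and 6. CAMTA1, a calmodulin-binding transcription activator, held 7, with 5 and 5 against 5 and 6. CEP112, a centrosomal protein gene, also held 7, none of them wide in all libraries. CTNNA3, an alpha-catenin gene of 1851 kb, held 6.

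A wide summit fell in the promoter window or an exon of 65 protein-coding genes, 46 in a promoter and 19 in an exon. In 10 of them it was wide in all 4 libraries and in 32 in 1 library. The 4 promoters were those of SNX32, UBE2QL1, TRPV4 and ARFGEF2. At SNX32, a sorting nexin gene, chr11:65601457-65602728 had folds of 19.99 and 16.9 in control against 21.6 and 15.5 in si-N6AMT1, with the summit 677 bp after the transcription start. At UBE2QL1, a ubiquitin-conjugating enzyme family gene, chr5:6446535-6448698 had 18.7 and 19.2 against 19.5 and 16.6. Both windows were CACA-rich, and the groups overlapped at both.

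TRPV4, a calcium-permeable cation channel gene, had folds of 14.5 and 11.0 in control against 17.1 and 12.6 in si-N6AMT1 over chr12:110250169-110252261, with the groups overlapping. ARFGEF2, an exchange factor gene for ARF GTPases in vesicle traffic, had 12.3 and 12.9 against 13.7 and 14.5 over chr20:47536986-47538204, higher in both si-N6AMT1 libraries. The share of all nuclear regions with this order was 16.9%.

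The 6 genes with a wide exonic summit in all libraries were PLBD2, MUC6, GSG1L, NFILZ, POLR2A and ANKRD12. All 4 wide summits lay in coding sequence in MUC6, POLR2A and ANKRD12, and the strongest lay in untranslated sequence in PLBD2, GSG1L and NFILZ. MUC6, a gel-forming mucin of the stomach with long coding repeats, had folds of 13.5 and 10.2 in control against 10.5 and 9.69 in si-N6AMT1 over chr11:1015993-1018642. POLR2A encodes the largest subunit of RNA polymerase II, whose tail repeats a short peptide many times. Over chr17:7416318-7417468 it had folds of 10.9 and 6.25 in control against 8.54 and 8.91 in si-N6AMT1. The best spacing at its summit was 84 bp, with a self-match share of 0.699, just under the limit for a tandem repeat. ANKRD12, an ankyrin repeat gene, had 10.7 and 7.43 against 10.5 and 10.3 over chr18:9255101-9256654. The groups overlapped at POLR2A, ANKRD12 and MUC6. Over the 4 libraries the fold lay between 12.8 and 15.9 at PLBD2, between 9.31 and 13.2 at GSG1L and between 8.70 and 11.9 at NFILZ.

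Gene lists were compared by the share with a wide region in the gene or within 5000 bp of it, which was 7.501% of all 20090 protein-coding genes. Of 20 very long genes, 12 (60%) had one, among them CNTNAP2, DLG2 and NAALADL2, and the median length of the list was 1529 kb. Of 21 genes with long coding tandem repeats, 5 (23.8%) had one, namely MUC5AC, MUC6, MUC16, PRDM9 and ZAN. Of these, MUC6 was wide in all libraries, ZAN in 3, MUC5AC in 2 and MUC16 and PRDM9 in 1. Their list had a median length of 39.1 kb. A nuclear peak of any width lay in or near 71.4% of its genes, against 54.3% of all protein-coding genes. The wide summit of highest fold was exonic for MUC6 and ZAN, intronic for MUC16 and intergenic for PRDM9 and MUC5AC. The region of MUC5AC lay 1417 bp outside the gene.

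Among 8 cell cycle regulators named by the study, 1 had a wide region, in RB1, a tumour suppressor that restrains entry into S phase. It was wide in si-N6AMT1 replicate 2 alone, at 1300 bp, and measured 513, 578 and 634 bp in the other libraries, over chr13:48886782-48888081. Its fold was 7.41 and 6.66 in control against 6.73 and 8.78 in si-N6AMT1, so the groups overlapped. Of 16 luminal breast genes, 1 had a wide region, at KRT8, a keratin of simple epithelia, also wide in 1 library. Among 4 genes of 6mA enzymes there was none, while 2 of them had a nuclear peak of some width. A nuclear peak of any width lay in or near 54.3% of all protein-coding genes and 7 of the 8 cell cycle regulators.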

How the data were processed

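6mA-IP-seq reads were filtered with Trimmomatic, aligned to hg19 with Bowtie2 2.3.5, freed of duplicates with SAMtools 1.9 and called into peaks in each library with MACS2 at p 1e-05, per the methods of the study. Which input served each call is not given in the sources used here. The fold deposited by the authors is the ratio (summit pileup plus 1) to (local background plus 1). The −log10 p and −log10 q values were deposited for each summit, and the deposited score equals 10 times −log10 p cut to a whole number in nearly all peaks. The score was not analysed further. Removal of duplicates and placement of reads in repeats can lower or move the pileup in arrays.

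Groups came from the sample titles, and the replicates are separate biological samples per the study. Members, gene lists, regions and tests were chosen with earlier results of these data known. Pileup and background at each summit were recovered from fold and −log10 p, and pileups came out whole within 0.02 for 100% of peaks. The lowest background divided by the smallest width gave the relative depth. Read totals were not used here, so no interval for counting error is given. Summit windows of 300 bp were read from the GRCh37 primary assembly, in which 0 peak ends lay past a chromosome end. Promoters, exons and introns came from basic transcripts of protein-coding and long noncoding genes of GENCODE v44 lifted to GRCh37, with promoters first, then exons, then introns. Gene bodies, gene lengths, nearest genes and gene lists used all protein-coding gene records of this annotation. A region can thus meet a gene body while its summit counts as intergenic. Each base was compared with the base at spacings of 1 to 100 bp. Named regions were the 6 with the widest peaks, the 6 of highest mean fold called in all libraries and up to 3 wide in both libraries of a group with no peak in the other. Named genes were up to 10 with a wide summit in a promoter or exon, members of 5 gene lists and the 5 genes with most wide regions. Some members of the lists are not reported on their own.

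Libraries were compared with two-sided exact permutation tests over 6 assignments, and wide with other peaks within libraries with two-sided exact sign-flip permutation tests. Region by region, the fold differences between the replicates of a group were not correlated between the groups (correlation 0.0141 over 12124 regions). This correlation leaves out shifts of whole libraries. Replicate 1 had the lower depth and the higher wide share in both groups. The main tests had no block, and differences with the replicate block are given at the end. The statistics were tested on simulated data. The study's differential test needs signal tracks and was not used here. Work was done in Python 3.11.15 with numpy 2.4.6, pandas 2.3.3, scipy 1.17.1, numba 0.67.0, pysam 0.24.0 and matplotlib 3.10.9, and samtools 1.23.1.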

Additional observations from a re-analysis of the deposited data

How the results depend on the processing

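Results were recomputed at other widths, with a −log10 q of at least 5, with equal numbers of peaks, on autosomes, without each library and with other windows, gap distances, promoters and overlaps. The gap-adjacent share of wide peaks stayed above that of the others in all 11 settings, by 1.69 to 10.2 percentage points. At 800 bp and at 1500 bp there were 7874 and 660 wide regions, 1420 and 208 wide in all libraries, 4275 and 605 called in all libraries, 16 and 0 wide in both control libraries with no si-N6AMT1 peak, and 55 and 0 wide in both si-N6AMT1 libraries with no control peak. Wide minus other was 3.64 and 9.71 percentage points for chromosome ends, 12.3 and 22.9 for CACA-rich and 1.25 and 7.76 for GGAAT-rich windows at the same limits. At 800 bp the exon difference turned to −0.0233, and at 1500 bp the intergenic, intron and promoter differences turned to 4.22, −4.21 and −0.0458. At −log10 q of at least 5, 12 regions were wide in both si-N6AMT1 libraries with no control peak. With equal numbers, where the cut took most peaks from the si-N6AMT1 lists, the difference in wide share turned to 0.826. In the same setting, 4 regions were wide in both libraries of each group with no peak in the other. With an overlap of 50%, there were 34 such regions for control and 74 for si-N6AMT1. Against strong other peaks, the promoter, tandem repeat and GC differences turned to −1.23, −3.59 and −0.481 and the repeated sequence difference to 4.37, and the chromosome end and CACA-rich differences were 3.46 and 2.01. Without single libraries, the difference in share lay between −0.154 and 0.0579 (turning without control replicate 1, 0.0579, and without si-N6AMT1 replicate 2, 0.017), the log2 fold difference between −0.0888 and 0.0129 (turning without control replicate 1), and the regions wide in one group with no peak in the other between 5 and 63 for control and between 34 and 140 for si-N6AMT1, where a left-out library also removes a condition from the definition, so these counts cannot fall. With the replicate block, the differences were 385 wide peaks, −0.0482 percentage points, 521 kb and −0.04 log2. Each had an exact permutation p of 0.5, the smallest that 2 pairs allow, so no call could be made or change in this setting. The fragments behind a summit, 23 to 26 in the median, limit single folds. The causes of these changes were not tested.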
